A study of Nothobranchius furzeri and Iconisemion striatum and Callopanchax occidentalis with 18 samples.

Results

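The miR-29 family was represented by miR-29a and miR-29b, the entries of that name in the deposited count table, which made 2 of its 291 mature miRNAs. They were followed over 18 small RNA libraries of whole killifish embryos, all labelled as somite stage, in which the body is being divided into segments. The annual killifish Nothobranchius furzeri gave 5 libraries of embryos in diapause, a reversible arrest of development, and 3 libraries of embryos not in diapause. Strain MZM0410 gave all 3 libraries of the latter kind. The embryos in diapause came from strain MZM0403 (replicate 1), from strain MZM0410 (replicate 2, and replicate 3 labelled as 2 weeks of diapause) and from GRZ x MZZW (replicate 4 at 1 month and replicate 5 at 2 months). Callopanchax occidentalis and Nematolebias papilliferus, labelled annual and in diapause, gave 1 library each. The 5 species labelled non-annual and not in diapause were Aphyosemion striatum, whose organism label reads Iconisemion striatum, with 4 libraries, and 1 library each of Rivulus cylindraceus, Epiplatys dageti monroviae, Austrofundulus leohoignei and Aplocheilus lineatus. No strain was given for species other than N. furzeri.

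A mature miRNA guides a silencing complex to messenger RNAs, mainly through its seed near the 5′ end, and the miR-29 members share their seed. In mammals miR-29 is best known for repressing collagens and other proteins of the extracellular matrix, and also de novo DNA methyltransferases. Its level is known to rise as tissues mature and age, and in the brain of adult N. furzeri it has been linked to the control of neuronal iron.

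The miRNA counts of a library totalled between 371908 and 4177400, so the 3 counts that a count of 0 allows were worth between 0.718 and 8.07 RPM (reads per 1000000 miRNA counts of the library). The library names placed 8 libraries in lane 1, 9 in pool 3 and 1 in pool 2. This grouping is called sequencing run here, although no label states the run. Of all 18 to 33 nt reads, between 1.43% and 77.3% were counted on miRNAs. Every tissue list had counts in all libraries. Its summed miRNAs lay at 63.8 to 805 RPM for muscle, 3866 to 29485 RPM for epithelium and 54.1 to 6578 RPM for nervous system. They lay at 204 to 2918 RPM for cartilage and mesenchyme, 1.86 to 601 RPM for blood and 1.33 to 69.7 RPM for the liver miRNA miR-122. The lowest blood and miR-122 values, in A. striatum replicates 3 and 4, lay below what 3 counts were worth there (2.79 and 3.99 RPM). Whether replicates were separate clutches is not stated in the labels. The p-values therefore set a group difference only against the spread between these libraries, a spread that may be technical. In the last comparison below, that spread is between species. The intervals below are 95% exact (Clopper-Pearson) intervals and cover counting error only.

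miR-29a was a low to moderate miRNA in most embryos and an abundant one in a single species. In N. furzeri in diapause, replicates 1 to 5 held 161, 17, 69, 57 and 57 counts of miR-29a, or 116, 29.4, 27.0, 13.9 and 45.6 RPM. Replicate 1 stood highest, with an interval of 98.5 to 135 RPM that lay above those of the other 4 libraries. In N. furzeri not in diapause, replicates 1 to 3 held 69, 7 and 27 counts, or 16.5, 5.44 and 10.6 RPM. On this scale the groups overlapped, because replicate 4 in diapause lay below replicate 1 not in diapause.

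The other annual species in diapause were low in miR-29a by RPM. C. occidentalis and N. papilliferus held 12 counts each, which gave 15.8 RPM (8.17 to 27.6) and 13.0 RPM (6.69 to 22.6). These intervals overlapped each other and took in the value of replicate 4 of N. furzeri in diapause.

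The species labelled non-annual spanned the whole range of miR-29a. A. striatum held 26, 48, 10 and 39 counts in replicates 1 to 4, or 17.7, 19.9, 9.28 and 51.9 RPM. Replicate 4, from lane 1, stood above the other 3 libraries, which were from pool 3. A. leohoignei held 1589 counts, or 1457 RPM (1387 to 1531), and there miR-29a ranked 34 of 248 detected miRNAs. R. cylindraceus followed at 29 counts, or 78.0 RPM (52.2 to 112), and E. dageti monroviae held 8 counts, or 15.3 RPM (6.59 to 30.1). At the other end, A. lineatus held 1 count, or 0.857 RPM (0.0217 to 4.77), where miR-29a ranked 192 of 217. In order of RPM, A. leohoignei stood clear of every other library, and the A. lineatus interval met those of N. furzeri not in diapause replicate 2 and A. striatum replicate 3 and lay below all others. Between these extremes the intervals of neighbouring single libraries overlapped.

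miR-29b was scarce in nearly every library. In N. furzeri in diapause, replicates 1 to 5 held 51, 17, 28, 47 and 16 counts of miR-29b, or 36.6, 29.4, 11.0, 11.5 and 12.8 RPM. In N. furzeri not in diapause, replicates 1 to 3 held 28, 13 and 17 counts, or 6.70, 10.1 and 6.68 RPM. The lowest library in diapause (replicate 3, 11.0 RPM) and the highest not in diapause (replicate 2, 10.1 RPM) lay close together. Their counting intervals (7.29 to 15.9 RPM and 5.38 to 17.3 RPM) overlapped. With TMM over all 18 libraries, described below, they were at 14.3 and 14.2 CPM.

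C. occidentalis and N. papilliferus held 4 counts of miR-29b each, or 5.27 RPM (1.44 to 13.5) and 4.32 RPM (1.18 to 11.1). A. striatum held 3, 7, 3 and 19 counts in replicates 1 to 4, or 2.04, 2.91, 2.79 and 25.3 RPM. Replicate 4 was again the high library, and its interval (15.2 to 39.5 RPM) did not meet those of the other 3 A. striatum libraries. A. leohoignei held 64 counts, or 58.7 RPM (45.2 to 75.0), E. dageti monroviae held 10, or 19.1 RPM (9.14 to 35.1), and A. lineatus held 1, or 0.857 RPM. R. cylindraceus held none, which allows up to 8.07 RPM. With counts this low, single libraries of C. occidentalis, N. papilliferus, A. lineatus and R. cylindraceus could not be ordered among themselves.

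**Figure D1:**
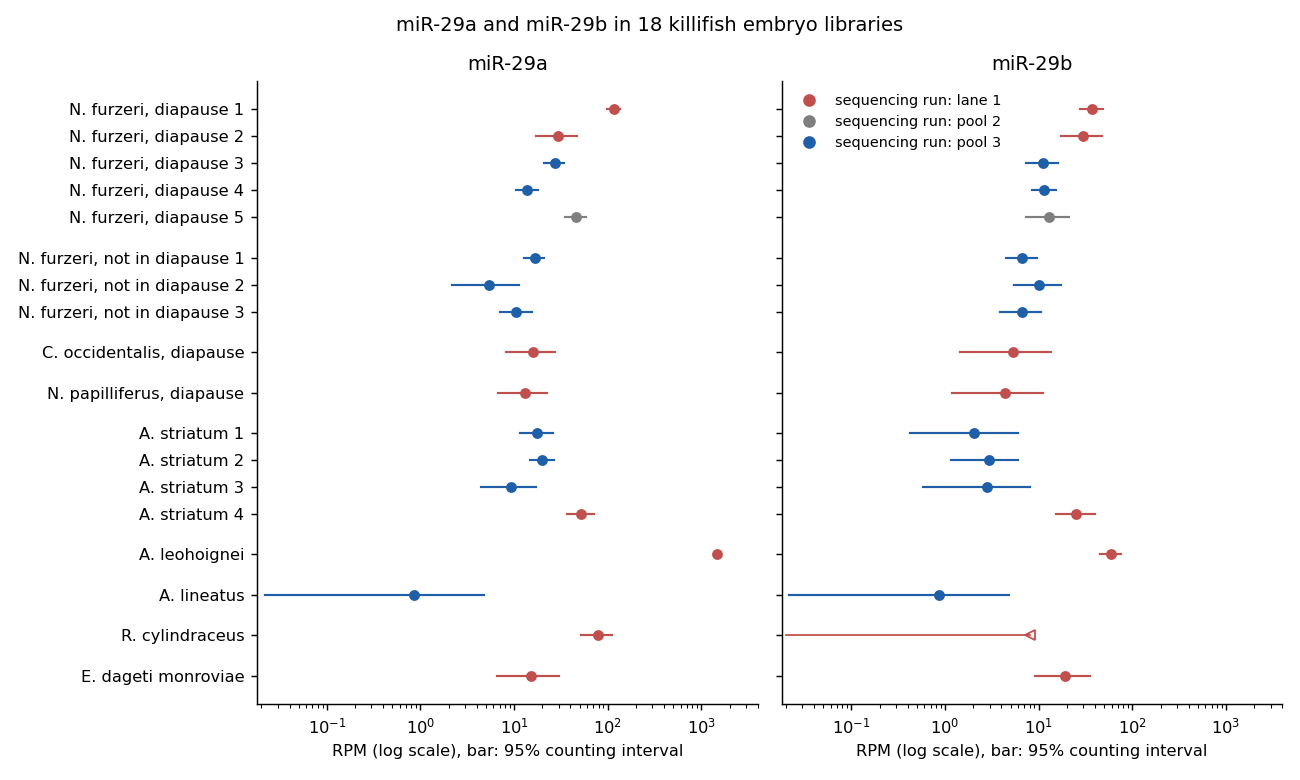
miR-29a and miR-29b in RPM (log axis) in each of the 18 libraries, with points coloured by sequencing run and bars giving the 95% counting interval; the open triangle marks the limit of 8.07 RPM for the count of 0 in R. cylindraceus. miR-29a at 1457 RPM in A. leohoignei lies far to the right of all other points, and both members lie at 0.857 RPM in A. lineatus.

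Sequencing run moved with these levels. The median of miR-29a was 40.6 RPM over the 8 lane 1 libraries and 13.9 RPM over the 9 pool 3 libraries, and that of miR-29b was 22.2 and 6.68 RPM. After TMM scaling over all 18 libraries, described below, these medians were closer, at 27.5 and 19.4 CPM for miR-29a and at 11.4 and 7.99 CPM for miR-29b. Species and diapause states were spread unevenly over the runs, so run and biology cannot be told apart in these medians. Within N. furzeri in diapause of strain MZM0410, replicate 2 of lane 1 and replicate 3 of pool 3 had close miR-29a levels (29.4 and 27.0 RPM) and more distant miR-29b levels (29.4 and 11.0 RPM). With TMM over all 18 libraries this turned round, to 18.5 and 35.3 CPM of miR-29a and 18.5 and 14.3 CPM of miR-29b.

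RPM depends on the few most abundant miRNAs of a library, so the levels were also scaled over all 18 libraries with TMM, which sets library sizes so that most miRNAs match. A. leohoignei again held the most miR-29a, at 510 TMM scaled CPM (counts per 1000000 of the scaled library). Replicates 1 and 5 of N. furzeri in diapause followed at 64.8 and 62.8 CPM, and A. lineatus was lowest at 1.54 CPM. C. occidentalis was at 25.6 CPM, which ranked 8 of the 18 libraries, and N. papilliferus was at 12.1 CPM, which ranked 15. On this scale miR-29a averaged 43.6 ± 19.8 CPM (SD, n = 5) in N. furzeri in diapause, 13.7 ± 6.01 CPM (SD, n = 3) in its embryos not in diapause and 21.5 ± 5.97 CPM (SD, n = 4) in A. striatum. miR-29b averaged 20.3 ± 6.09 CPM, 10.3 ± 3.43 CPM and 6.06 ± 5.58 CPM in these groups. Replicate 4 of N. furzeri in diapause then had the most miR-29b, at 30.4 CPM, ahead of A. leohoignei at 20.6 CPM.

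The high level in A. leohoignei was a matter of miR-29a much more than of miR-29b. In RPM, miR-29a was 12.6-fold above the next library and 88.2-fold above the median of the other 17, and miR-29b was 1.60-fold above the next library. This library was high in many miRNAs in RPM, since 64 of 169 miRNAs averaging at least 10 RPM, or 37.9%, were highest there. After TMM scaling 20 of 158, or 12.7%, were highest there, and miR-29a was still 7.87-fold above the next library and 25.9-fold above the median of the others, while the median miRNA was at 0.978 of it. By fold over the highest other library miR-29a ranked 2 of these 158 miRNAs, behind miR-18c at 8.28-fold, which was picked out after its values were seen, and miR-29b ranked 45, at 0.676 of the highest other library. In RPM the same library had the highest summed cartilage and mesenchyme miRNAs (miR-140, miR-199 and miR-214 entries, all 6 detected), at 2918 RPM, followed by replicate 1 of N. furzeri in diapause at 1902 RPM, against 204 to 881 RPM in the other libraries. After TMM scaling these sums were 1022 and 1066 CPM, against 264 to 934 CPM in the other libraries, so A. leohoignei was no longer the highest. The part of those cells in the result was not tested. In RNA of whole embryos, fewer cells of a type and less RNA per cell cannot be told apart.

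The balance between the members differed between libraries by more than counting error. miR-29a made 96.1% (95.1 to 97.0) of the miR-29 counts in A. leohoignei and all 29 counts in R. cylindraceus (88.1% to 100%). In A. striatum it made 89.7%, 87.3%, 76.9% and 67.2% in replicates 1 to 4, and the intervals of all 4 libraries overlapped. In N. furzeri in diapause it made 75.9%, 50.0%, 71.1%, 54.8% and 78.1% in replicates 1 to 5. The 3 libraries not in diapause gave 71.1%, 35.0% and 61.4%, within or below that range, so the states overlapped in balance. C. occidentalis and N. papilliferus were both at 75.0% (47.6 to 92.7), E. dageti monroviae was at 44.4% (21.5 to 69.2), and the 2 counts of A. lineatus allow almost any balance. The interval of A. leohoignei lay above those of all 8 N. furzeri libraries. Recovery in library preparation and counting can differ between the members and, where their sequences differ, between species, and this was not tested.

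**Figure D2:**
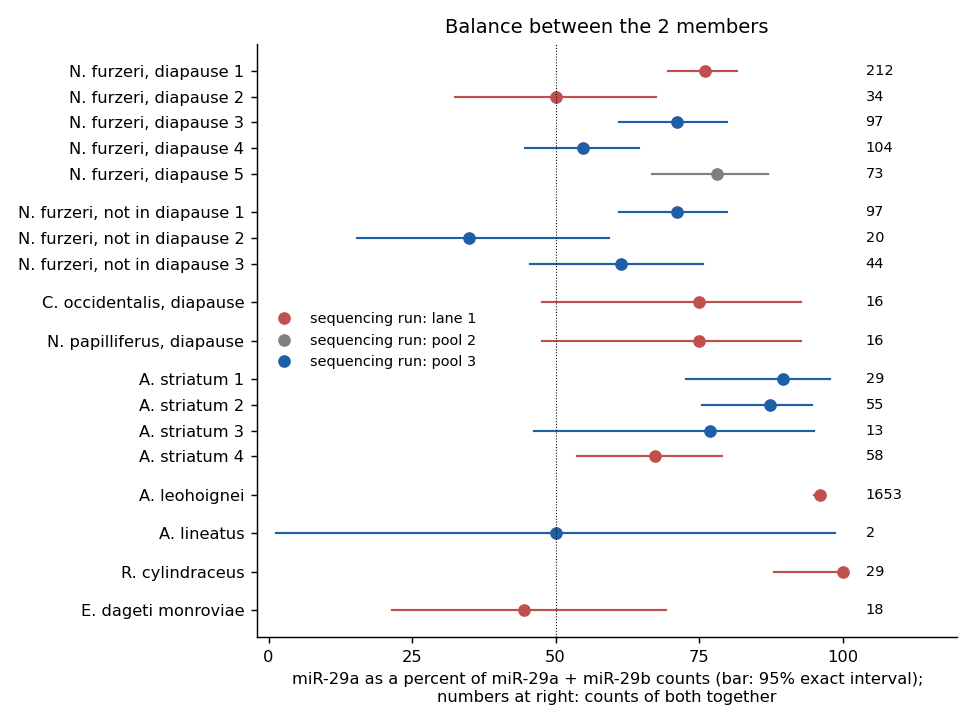
miR-29a as a percent of the miR-29a and miR-29b counts of each library, with bars giving the 95% exact interval and the number of counts printed at the right. A. leohoignei at 96.1% and R. cylindraceus at 100% lie at the right edge, and the N. furzeri libraries spread from 35.0% to 78.1%.

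The first comparison asked how embryos of one species differ in and out of diapause. Both members had higher group means in N. furzeri in diapause, but neither passed the adjusted threshold of 0.05. Scaled within this comparison, miR-29a was at 63.1, 21.4, 29.8, 30.1 and 51.3 CPM in replicates 1 to 5 in diapause and at 16.5, 5.57 and 9.75 CPM in replicates 1 to 3 not in diapause. The groups did not overlap on this scale, but they did in RPM and with TMM over all 18 libraries, where replicate 2 in diapause was at 18.5 CPM and replicate 1 not in diapause at 19.7 CPM. The means were 39.1 ± 17.4 CPM (SD, n = 5) and 10.6 ± 5.50 CPM (SD, n = 3), which gave 1.86 on the log2 scale (SE 0.53, adjusted p = 0.210 by edgeR's quasi-likelihood test with Benjamini-Hochberg adjustment).

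miR-29b was at 20.0, 21.4, 12.1, 24.8 and 14.4 CPM in diapause and at 6.68, 10.3 and 6.14 CPM not in diapause. Here too every library in diapause lay above every library not in diapause. The means were 18.5 ± 5.21 CPM (SD, n = 5) and 7.72 ± 2.28 CPM (SD, n = 3), which gave 1.28 on the log2 scale (SE 0.44, adjusted p = 0.224 by the same test).

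Neither member was called, and none of the 161 miRNAs tested was (0% by edgeR), while 24 (14.9%) had an unadjusted p under 0.05 and DESeq2's Wald test called 4. Scaled within this comparison, the groups did not overlap, with the level higher in diapause, for 8 of the 161 miRNAs tested (4.97%), both members among them; for miR-29a this did not hold on the other scales. By unadjusted p in the edgeR fit, miR-29a ranked 3 and miR-29b ranked 11 of the 161. The DESeq2 call included miR-29a, at a log2 fold change of 1.87 (adjusted p = 0.0366), and not miR-29b (1.33, adjusted p = 0.0814). The median of all miRNAs tested was 0.14 on the log2 scale.

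Strain, run and length of diapause were mixed into this comparison. Within pool 3, which left replicates 3 and 4 in diapause, the log2 fold changes were 1.53 for miR-29a and 1.39 for miR-29b (adjusted p = 0.232 and 0.304 by edgeR). Lane 1 and pool 2 held no N. furzeri library out of diapause, so they give no value. Within strain MZM0410, with replicates 2 and 3 in diapause, they were 1.17 and 1.03 (adjusted p = 0.735 and 0.739 by edgeR). Replicate 1 in diapause also stood apart in the sum of its nervous system miRNAs (miR-9, miR-124, miR-138 and miR-219 entries). That sum was 6578 RPM, against 54.1 to 269 RPM in the other 4 libraries in diapause. In those not in diapause it was 154 to 161 RPM. The sum does not show which entries carried it. Of the list, miR-219-5p did not stand apart, at 7.18 RPM against 2.92 to 17.3 RPM in the other N. furzeri libraries. Without replicate 1 in diapause the log2 fold changes were 1.65 and 1.30 (adjusted p = 0.206 and 0.228 by edgeR). The cartilage and mesenchyme miRNAs summed to between 242 and 1902 RPM in diapause, with replicate 1 the highest, and to between 397 and 784 RPM not in diapause. The part of these cells in the result was not tested.

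The length of diapause was given for 3 libraries and could not be tested, since each length had 1 library and strain changed with it. On the scale of this comparison miR-29a was at 29.8 CPM at 2 weeks, 30.1 CPM at 1 month and 51.3 CPM at 2 months. miR-29b was at 12.1, 24.8 and 14.4 CPM in the same order. The members did not share an order over these libraries.

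**Figure D3:**
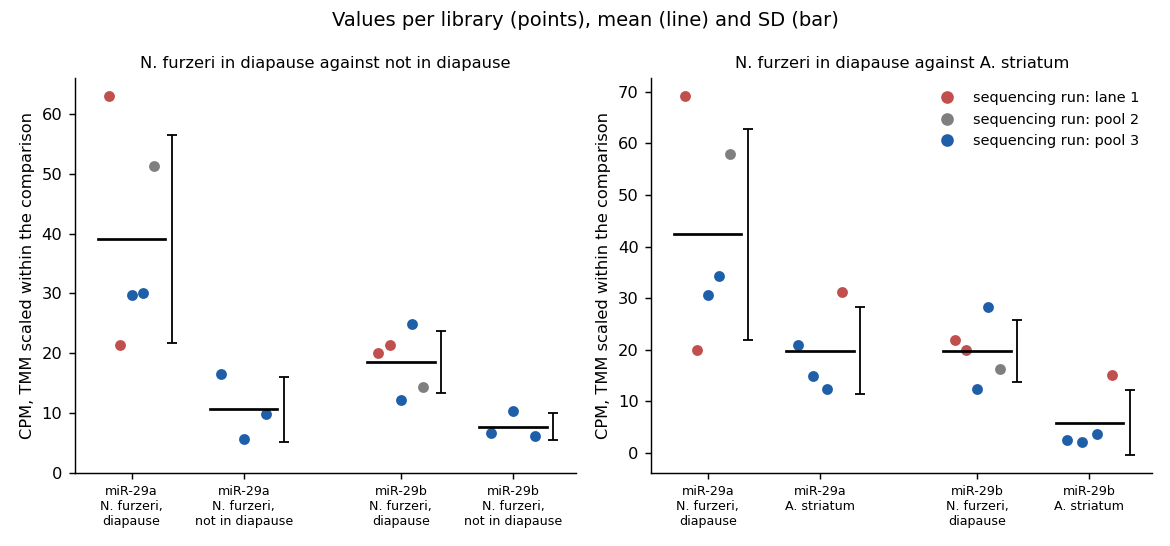
CPM of miR-29a and miR-29b, TMM scaled within each comparison, in each library (points coloured by sequencing run), with the group mean (line) and SD (bar), for N. furzeri in each diapause state at left and for N. furzeri in diapause and A. striatum at right. At left the points of the groups do not overlap for either member, and at right the lane 1 library of A. striatum lies within the range of N. furzeri.

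The second comparison set N. furzeri not in diapause against A. striatum, an annual and a non-annual species in the same state. miR-29a was at 19.4, 5.92 and 10.5 CPM in N. furzeri and at 22.4, 13.8, 15.7 and 27.8 CPM in A. striatum, scaled within this comparison. The groups overlapped. Their means were 11.9 ± 6.87 CPM (SD, n = 3) and 19.9 ± 6.40 CPM (SD, n = 4), which gave -0.70 on the log2 scale (SE 0.56, adjusted p = 0.364 by edgeR). miR-29a was thus not called, where 34 of 157 miRNAs tested (21.7%) were.

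miR-29b did not pass the filter on low counts in that comparison. In a fit without the filter its log2 fold change was 0.64 (SE 0.75, adjusted p = 0.573 by edgeR). It rested on 28, 13 and 17 counts in N. furzeri and 3, 7, 3 and 19 counts in A. striatum. Within pool 3, which leaves out replicate 4 of A. striatum, it was 1.49 (SE 0.59, adjusted p = 0.0982 by edgeR), and miR-29a stayed below 0. The signs of the members thus differed, with neither passing the threshold.

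The third comparison set N. furzeri in diapause against A. striatum, where species and diapause cannot be told apart, and it shares its libraries with the first 2 comparisons. miR-29b was at 21.9, 20.0, 12.4, 28.3 and 16.3 CPM in N. furzeri and at 2.42, 2.16, 3.68 and 15.2 CPM in A. striatum. The groups overlapped through replicate 4 of A. striatum, the 1 lane 1 library of that species. The means were 19.8 ± 5.99 CPM (SD, n = 5) and 5.86 ± 6.24 CPM (SD, n = 4), a log2 fold change of 1.76 (SE 0.64) just short of the threshold (adjusted p = 0.0503 by edgeR).

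This call turned with the processing and with replicate 4 of A. striatum. With all libraries kept, miR-29b passed with DESeq2's size factors (adjusted p = 0.0446 by edgeR), DESeq2's Wald test (adjusted p = 0.0227) and run as a covariate (adjusted p = 0.0384 by edgeR), and not with library totals (adjusted p = 0.336 by edgeR). Over the 9 single libraries left out in turn, the log2 fold change of miR-29b was 1.35 to 2.80 (adjusted p = 0.00376 to 0.127 by edgeR). The highest came without replicate 4, at 2.80 (SE 0.53, adjusted p = 0.00376 by edgeR). Within pool 3, which also leaves out replicate 4, it was 2.92 (SE 0.65, adjusted p = 0.0130 by edgeR). That replicate also had the highest nervous system sum of its species, at 1162 RPM against 253 to 530 RPM. Of that list, miR-219-5p went the other way, at 6.65 RPM against 17.0 to 69.8 RPM. The replicate's cartilage and mesenchyme miRNAs, at 496 RPM, lay within the range of the other 3 (324 to 881 RPM). With TMM over all 18 libraries, replicate 4 was at 658 CPM against 343 to 515 CPM in summed nervous system miRNAs. On that scale it was at 3.77 CPM against 21.2 to 67.8 CPM in miR-219-5p. In the cartilage and mesenchyme sum it was at 281 CPM against 404 to 855 CPM. The part of these cells in the result was not tested.

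miR-29a was at 69.1, 20.0, 30.5, 34.3 and 57.9 CPM in N. furzeri in diapause and at 21.0, 14.8, 12.3 and 31.1 CPM in A. striatum. The groups overlapped. The means were 42.4 ± 20.4 CPM (SD, n = 5) and 19.8 ± 8.39 CPM (SD, n = 4), which gave 1.10 on the log2 scale (SE 0.49, adjusted p = 0.0940 by edgeR). Neither member was called, where 59 of 158 miRNAs tested (37.3%) were, 23 of them (14.6%) higher in N. furzeri.

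The last comparison set the 3 annual species in diapause against the 5 species labelled non-annual, with each species as 1 replicate, its counts summed. Diapause and life style cannot be told apart in it, and the kinship of the species was not modelled. A. leohoignei was kept as labelled, although its genus is usually described as annual. miR-29a was at 51.3, 33.5 and 14.7 CPM in N. furzeri, C. occidentalis and N. papilliferus. It was at 521 CPM in A. leohoignei, 24.9 in A. striatum, 1.79 in A. lineatus, 57.6 in R. cylindraceus and 7.18 in E. dageti monroviae. The species labelled non-annual lay both above and below all annual ones. The log2 fold change was -1.88 (SE 1.52, adjusted p = 0.544 by edgeR), and without A. leohoignei it turned to 0.56 (SE 0.97, adjusted p = 0.717 by edgeR), so its direction rested on that library. With A. leohoignei counted as annual it was 2.68 (SE 1.30, adjusted p = 0.213 by edgeR). That setting put a library labelled as not in diapause among those in diapause.

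miR-29b was at 22.6, 11.2 and 4.89 CPM in the annual species and at 21.0, 6.47, 1.79, 0 and 8.97 CPM in A. leohoignei, A. striatum, A. lineatus, R. cylindraceus and E. dageti monroviae. These ranges overlapped too. The log2 fold change was 0.70 (SE 1.02, adjusted p = 0.721 by edgeR), and it was -0.94 when library totals took the place of TMM, a scaling that moved the median of all miRNAs from -0.06 to -1.19. Without N. furzeri it was -0.12. None of the 173 miRNAs tested was called (0% by edgeR), 21 (12.1%) had an unadjusted p under 0.05, and DESeq2 called 8, neither member among them.

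**Figure D4:**
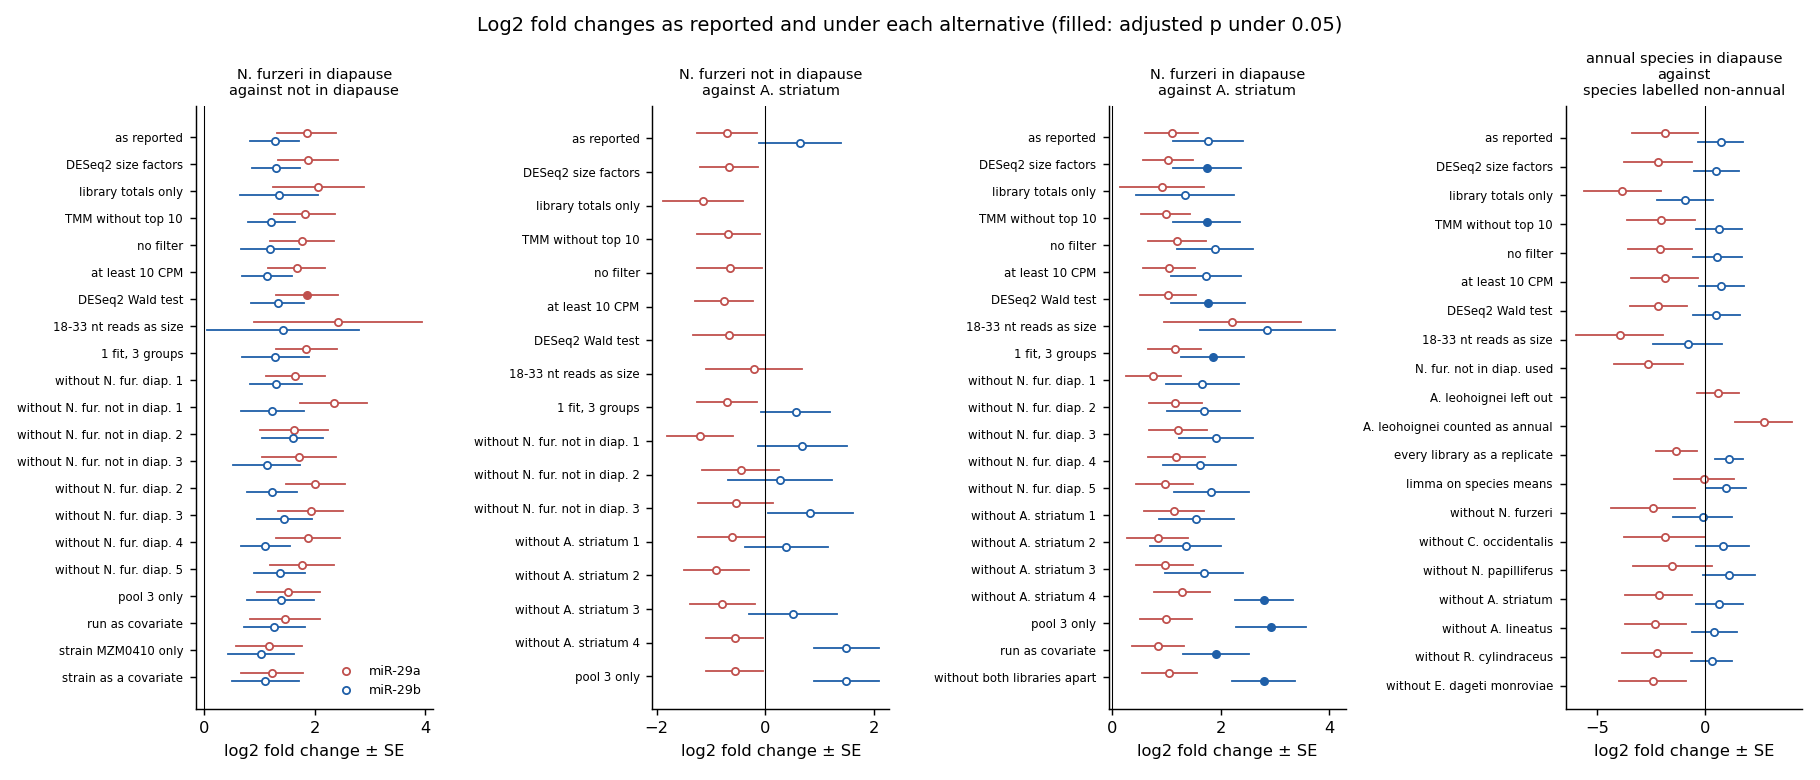
Log2 fold changes with standard errors of miR-29a and miR-29b in the 4 comparisons, as reported and under each alternative; filled points have an adjusted p under 0.05. In N. furzeri in diapause against not in diapause all points lie above 0, and for annual against non-annual species the points of miR-29a range from -3.96 to 2.68.

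Other miRNAs known for the same settings did not follow one direction across the comparisons. Of 27 entries known for roles in matrix and fibrosis (the miR-21, miR-30, miR-133, miR-192, miR-199, miR-200, miR-141 and miR-429 families), 17 were tested between the diapause states of N. furzeri. None passed in either direction by edgeR, 5 had an unadjusted p under 0.05 beside 14.9% of all miRNAs, DESeq2's Wald test called 1 lower beside 4 of all 161 in either direction, and the median log2 fold change was 0.25 against 0.14 for all miRNAs. miR-21, the most abundant of them and known as a fibrosis miRNA in mammals, was at 6817 ± 4669 CPM (SD, n = 5) in diapause and 20271 ± 9390 CPM (SD, n = 3) not in diapause, which gave -1.57 on the log2 scale (SE 0.57, adjusted p = 0.245 by edgeR). miR-30e-3p, from the opposite arm of a miR-30 hairpin, had -1.61 (SE 0.52, adjusted p = 0.217 by edgeR).

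Against A. striatum, N. furzeri in diapause had 5 of 19 tested matrix and fibrosis entries higher and 4 lower, beside 14.6% and 22.8% of all miRNAs. The 5 higher were miR-30b, miR-30d, miR-141-3p, miR-199-3p and miR-200a-3p, and the 4 lower were miR-21 at -1.72 (adjusted p = 0.0160 by edgeR), miR-30a-3p, miR-200a-5p and miR-200b-5p. When library totals took the place of TMM, none was higher and 2 were lower. Without A. striatum replicate 1 only 1 was higher, and over the other single libraries left out between 4 and 7 were. miR-30a-3p, miR-141-3p, miR-199-3p, miR-200a-5p and miR-200b-5p were picked out after their values were seen. For N. furzeri not in diapause against A. striatum, 2 of 19 were higher (miR-30d and miR-30e-3p) and 2 lower (miR-30a-3p and miR-200b-5p), beside 7.64% and 14% of all miRNAs. Over single libraries left out, between 0 and 4 were higher and between 1 and 3 lower; none was higher without A. striatum replicate 1 or without any 1 of the N. furzeri libraries. The arms of miR-30 and of miR-200 thus went in both directions. Of the 20 entries tested over species, none passed by edgeR, 4 had an unadjusted p under 0.05 beside 12.1% of all miRNAs, and DESeq2 called 1 higher and 2 lower beside 8 of all 173.

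A list of 26 entries known to accumulate as tissues mature (let-7, miR-26, miR-101, miR-15, miR-16 and miR-34 families) was followed in the same way. Between the N. furzeri states none of the 16 tested passed by edgeR or DESeq2, 1 had an unadjusted p under 0.05 beside 14.9% of all miRNAs, and the median was 0.27 against 0.14. miR-26a-5p, the most abundant, was 0.77 higher on the log2 scale in diapause (SE 0.35, adjusted p = 0.333 by edgeR), and miR-16b stood at -0.17 (SE 0.35, adjusted p = 0.781 by edgeR). Against A. striatum, N. furzeri in diapause had 3 of 16 higher, miR-26a-5p at 1.06 (adjusted p = 0.0374 by edgeR), miR-26b and miR-101a, and 4 lower, let-7i, let-7j, miR-15a-5p and miR-34a, beside 14.6% and 22.8% of all miRNAs. N. furzeri not in diapause had none of 17 higher and 5 lower, let-7g, let-7i, let-7j, miR-15b-5p and miR-34a, beside 7.64% and 14% of all miRNAs. The median log2 fold change of the list was -0.36 for embryos in diapause, against 0.22 for all miRNAs. For those not in diapause it was -0.37, against -0.0042 for all miRNAs. When library totals took the place of TMM, the counts of entries that passed were 0 higher and 0 lower for embryos in diapause and 3 lower for those not in diapause. Over single libraries left out, embryos in diapause had between 0 and 3 higher, with 0 without A. striatum replicate 1 and 1 without A. striatum replicate 2 or 3 or N. furzeri replicate 1 or 5, and between 2 and 4 lower, with 2 without A. striatum replicate 1 or 3 or N. furzeri replicate 3, 4 or 5. For embryos not in diapause between 0 and 6 were lower, with 0, 1 and 2 without N. furzeri replicates 3, 1 and 2. Apart from miR-26a-5p these were named after their values were seen. Over species none of the 16 tested passed by edgeR or DESeq2, and none had an unadjusted p under 0.05.

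The miRNAs whose levels ran most like those of the members were sought by Spearman's rho of log2(TMM scaled CPM + 1) over the 18 libraries, among 157 miRNAs averaging at least 10 CPM. The libraries share species, runs and scaling, so these values describe the table and carry no p. For miR-29a the highest were miR-30d (rho 0.62), miR-26a-5p (0.62), miR-19c-3p (0.58), miR-23a-3p (0.58) and miR-30b (0.57), and the lowest were miR-219-5p (-0.73), miR-222a-5p (-0.68) and miR-21 (-0.66). With library totals in place of TMM these low values were -0.20, -0.25 and -0.32. The rho of miR-29a with miR-29b was 0.50, which ranked 10 of 157, so some other miRNAs had a higher rho with miR-29a than its family member did. miR-29b held only 0 to 64 counts per library, and the part of counting error in this rank was not tested.

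For miR-29b the highest were miR-23a-3p (0.82), miR-30d (0.72), miR-200a-3p (0.70), miR-338 (0.68) and miR-455-5p (0.63). The lowest were miR-19d-5p (-0.73), miR-190a (-0.70) and miR-1388-5p (-0.70). With library totals these low values were -0.29, -0.36 and -0.47. Within the 8 N. furzeri libraries, on the TMM scale, they were -0.62, -0.45 and -0.48. miR-30d and miR-23a-3p were thus among the 5 highest for both members. Within the 8 N. furzeri libraries the rho with miR-29a was 0.93 for miR-30d, 0.79 for miR-26a-5p, 0.69 for miR-19c-3p, 0.90 for miR-23a-3p and 0.02 for miR-30b. That with miR-29b was 0.40 for miR-23a-3p, 0.60 for miR-30d, 0.07 for miR-200a-3p, 0.74 for miR-338 and -0.43 for miR-455-5p, so not all of these held within one species. In diapause miR-30d was at 369, 181, 229, 429 and 440 CPM in replicates 1 to 5, and not in diapause it was at 195, 141 and 152 CPM.

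On the TMM scale, miR-21 and miR-222a-5p, both named for their low rho over all libraries, ran more closely opposite to miR-29a within N. furzeri. Within its 8 libraries, of both diapause states, the rho was -0.95 for each. That of miR-219-5p, the lowest over all libraries, was weaker there, at -0.60. Within the 9 pool 3 libraries, of several species, the rho was -0.93 for miR-21, -0.38 for miR-222a-5p and -0.30 for miR-219-5p. The rho with library totals was not computed within these subsets. By RPM, the orders of miR-21 and miR-222a-5p in the N. furzeri libraries were less closely opposite to that of miR-29a. Replicate 4 in diapause held the least of both in N. furzeri, at 1784 RPM of miR-21 and 378 RPM of miR-222a-5p. It held only 13.9 RPM of miR-29a. A. lineatus, with the least miR-29a, held 91585 CPM of miR-21, the most of any library. A. leohoignei, with the most miR-29a, held 4016 CPM of miR-21, which was not the least. C. occidentalis held the least miR-21, at 1816 CPM, with 25.6 CPM of miR-29a. In RPM, A. leohoignei held 11467 RPM of miR-21, more than C. occidentalis at 1124 RPM and less than A. lineatus at 50995 RPM.

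**Figure D5:**
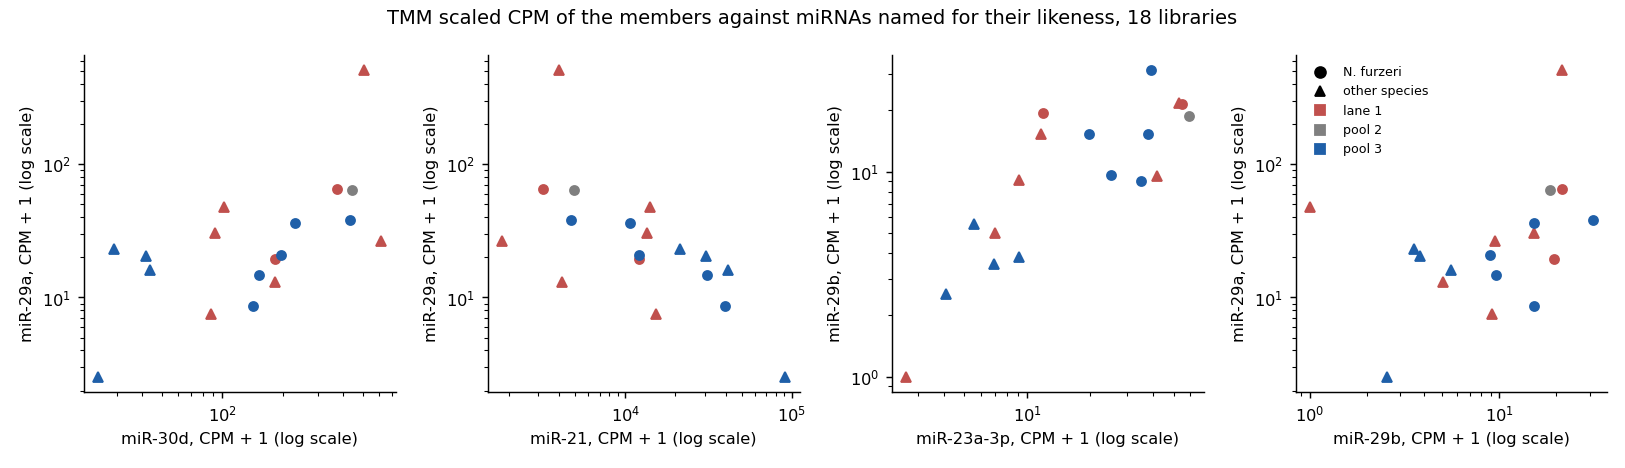
TMM scaled CPM + 1 (log axes) of miR-29a against miR-30d, miR-21 and miR-29b, and of miR-29b against miR-23a-3p, over the 18 libraries, with circles for N. furzeri, triangles for other species and colours for the sequencing run. A. leohoignei lies at the top at 510 CPM of miR-29a, and A. lineatus lies at the lower right of the miR-21 panel at 91585 CPM of miR-21.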

How the data were processed

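The authors deposited whole-number counts per mature miRNA and library. Per the file headers, reads passed a quality filter and adapter trimming, and those of 18 to 33 nt were aligned; the same deposited table gave the number of reads at each step. Per the labels' protocols, total RNA went into the TruSeq small RNA preparation of Illumina. The tools, per the submitters' processing notes, were Bowtie (1.0.0 and 1.1.2), bcl2fastq 1.8.3 and CASAVA 1.8.2. What the reads were aligned to, with how many mismatches, and how multiple matches were counted is not given in the sources used here. All 8 species were counted against the same names, so sequence differences can cost a species counts. The split between miR-29a and miR-29b is uncertain where a read could match either. A table of values derived from these counts was not used here. The total line (difference to the sum 0) and 2 columns matching no sample were left out.

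RPM is the count over the library's miRNA total. In R 4.3.3, edgeR 4.0.16 was run on the counts of all miRNAs with filterByExpr, TMM scaling, the quasi-likelihood test and Benjamini-Hochberg adjustment (threshold 0.05), and was tested on simulated data. Groups came from the labels, and replicate numbers follow sample order and pair nothing. The members and lists were chosen with earlier results of these data known. Named miRNAs were the members, the 5 highest and 3 lowest by rho, and the 2 most abundant of each list. Alternatives covered scaling (library totals only, DESeq2's size factors, TMM with the 10 most abundant miRNAs set aside), filtering (none, or a mean of at least 10 CPM), the DESeq2 1.42.0 Wald test, 1 fit over the 3 replicated groups, limma 3.58.1 on species means, every library as a replicate, another role for N. furzeri or A. leohoignei, subsets by run or strain, run or strain as a covariate, and each library or species left out. All reads of 18 to 33 nt as the library size, and leaving out N. furzeri in diapause replicate 1 together with A. striatum replicate 4, were added after seeing the data.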

Additional observations from a re-analysis of the deposited data

Results flagged for a closer look

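In 2 of the 8 groups of 4 or 5 values examined, 1 value stood apart from the others by Dixon's criterion. For normally distributed values, chance meets this criterion in about 1 in 20 groups. Here it was applied to values that were not put on a log scale, and their distribution was not checked. miR-29b in A. striatum was at 25.3 RPM in replicate 4, and the gap to the next library took 0.963 of the group's range (critical value 0.829, n = 4). miR-29a among the 5 species labelled non-annual was at 1457 RPM in A. leohoignei, and the gap took 0.947 of the range (critical value 0.71, n = 5). A. striatum entered as the summed counts of its 4 libraries, at 21.6 RPM. Every other species, A. leohoignei included, entered as 1 library.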

How the results depend on the processing

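No paired analysis was possible because the replicates carry no number in the labels that groups share. Between the diapause states of N. furzeri, both members kept a positive direction under all 20 alternatives, and without each library in turn the log2 fold change was 1.63 to 2.35 for miR-29a and 1.11 to 1.60 for miR-29b. DESeq2's Wald test passed miR-29a (1.87). Against A. striatum, N. furzeri not in diapause kept miR-29a below 0 in 16 of 16 alternatives (-1.20 to -0.21). miR-29b stayed above 0 in the 8 that could be fitted (0.28 to 1.49) and did not pass the filter in the others. In that comparison pool 3 only and leaving out A. striatum replicate 4 were the same fit, counted under both names. For N. furzeri in diapause, miR-29b passed under 8 of 20 alternatives: DESeq2's size factors (1.75), TMM without the 10 most abundant (1.74), the Wald test (1.76), 1 fit over 3 groups (1.85), without A. striatum replicate 4 (2.80), pool 3 (2.92), run as a covariate (1.91) and without both libraries that stood apart (2.79); over single libraries left out it was 1.35 to 2.80. miR-29a never passed there (0.75 to 2.21). For annual against non-annual species, miR-29a turned to 0.56 without A. leohoignei and to 2.68 (adjusted p = 0.213 by edgeR) with it counted as annual, but was -2.44 to -1.53 without each other species. miR-29b turned to -0.94 with library totals, -0.83 with all 18 to 33 nt reads as library size and -0.12 without N. furzeri, and was up to 1.09 without another species; it did not pass the filter in 4 alternatives. limma on species means put miR-29a at -0.06. The rho of miR-455-5p with miR-29b turned to -0.43 in the 8 N. furzeri libraries. Counts of list members that passed also moved between alternatives. The causes were not tested, beyond the library left out. With 1 to 69 counts in most libraries, depth limits both members.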
